A study of Homo sapiens with 10 samples.

Results

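Of the 67387 annotated H3K27ac regions of this series, 21266 lay in introns (31.6%), and these intronic regions are described here across 3 groups of libraries and by gene. They were chosen by position alone, as the regions whose deposited annotation begins with the word intron. Each region was 502 bp wide, and 169637 regions were counted in all. The annotation text gives the number of the intron, and by that number 8333 regions were in a first intron (39.2%) and 12933 in a later one. Regions in the only intron of a transcript (1127) count as first-intron regions. All intronic regions lay between 3001 and 99978 bp from the nearest annotated transcription start site (TSS), with a median of 14841 bp. First-intron regions were closer to a TSS (median 13158 bp) than later-intron regions (16154 bp).

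H3K27ac, the acetylation of lysine 27 on histone H3, is laid down by the acetyltransferases p300 and CBP and marks active promoters and active enhancers. Enhancers often lie inside introns, where they can act on the gene that holds them or on another gene, and first introns are a common place for them because of their length and their closeness to the promoter. Acetylated histones are bound by BET bromodomain proteins, and AZD5153 is a BET bromodomain inhibitor. The name enhancer rests here on H3K27ac and on position, since no second enhancer mark was used.

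The cells were H1975, an established human lung adenocarcinoma line with mutated EGFR, and all groups came from this line. The DMSO group was kept without drug for 21 days and then in DMSO for 3 days. The osimertinib DTP group (drug-tolerant persister cells) had 500 nM osimertinib, an EGFR kinase inhibitor, for 24 days. The osimertinib DTP + AZD5153 group, called the AZD5153 group from here on, had 500 nM osimertinib for 21 days and then 150 nM AZD5153 for 3 days. The labels do not say whether osimertinib was kept on during those 3 days. Each group had 3 H3K27ac libraries, described as biological triplicates, and 1 input library was pooled.

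Of the intronic regions, 19080 lay in 4281 host genes with an Entrez identifier and 2186 in transcripts without one. The host gene is the gene whose intron holds the region. It is not always the gene that the deposited table assigns to it, since 3354 of the hosted regions (17.6%) were assigned to another gene, most often one with a closer start. The assigned gene was a microRNA for 683 of these, an antisense gene for 449 and a long intergenic noncoding gene for 208. A host held a median of 3 regions. There were 1219 hosts with 1 region, and the 455 hosts with at least 10 held 7535 regions (39.5%). First introns alone held the regions of 1198 hosts, later introns alone those of 2320, and 763 hosts had regions in both. Regions of 1 gene are neighbours in the same libraries and not replicates.

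The counts over all regions summed to between 6263443 and 10463351 per library. Levels are given as CPM, the counts of a region per 1000000 counts of its library, scaled with trimmed mean of M values (TMM) factors. In the intronic regions, pairs of libraries of a group correlated with Spearman coefficients of 0.842 to 0.919 in DMSO and 0.782 to 0.824 in osimertinib DTP. AZD5153 replicates 1 and 2 correlated at 0.880, but AZD5153 replicate 3, the shallowest library, correlated with them at only 0.523 and 0.462, so the counts of called regions, genes and lists against DMSO are also given without it. No pair of libraries was as close as sampling noise alone would make it (chi-square over its degrees of freedom at least 4.47). The lung epithelial genes checked all carried regions (KRT8 10, KRT7 14, EPCAM 10, CDH1 24, NKX2-1 3). Of the leukocyte genes, PTPRC, CD3E and LYZ carried 0 and CD68 carried 2. Of the fibroblast genes, COL3A1 and DCN carried 0, COL1A2 2 and PDGFRB 11, and the endothelial genes PECAM1, VWF and CDH5 carried 8, 5 and 6. In such bulk chromatin, fewer cells with the mark and less mark per cell cannot be told apart.

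A few intronic regions lay over a start site of RefSeq that was farther down the gene or belonged to another transcript. The 140 RefSeq promoter windows concerned, 250 bases before to 50 after a start, were overlapped by 142 intronic regions (0.668%), and no intronic region overlapped a microRNA hairpin of RefSeq. The median level of these 142 regions was 9.24 CPM, against 6.41 over all intronic regions. Of the 142, 6 were higher and 8 lower in osimertinib DTP than in DMSO by the test described below, in which 5.58% of all tested regions were higher and 5.13% lower, so this is no result about the 142. The 4 windows shown here, chosen after their values were seen, are pairs that fell and rose and show what the sequence under a changed intronic region looks like. They read 5′ to 3′ on the strand of the gene (RefSeq, GRCh38.p14), and capitals mark the bases inside the counted region.
LINC00973, plus strand, chr3:98966834-98967133: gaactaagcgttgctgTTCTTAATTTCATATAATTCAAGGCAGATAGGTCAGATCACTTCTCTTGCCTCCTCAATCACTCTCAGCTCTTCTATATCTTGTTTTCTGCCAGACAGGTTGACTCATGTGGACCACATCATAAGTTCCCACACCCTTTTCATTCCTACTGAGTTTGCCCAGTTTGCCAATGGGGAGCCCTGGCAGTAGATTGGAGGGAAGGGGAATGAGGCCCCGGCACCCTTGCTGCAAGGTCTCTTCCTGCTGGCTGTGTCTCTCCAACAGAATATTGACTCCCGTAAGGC
HDAC4, minus strand, chr2:239267465-239267764: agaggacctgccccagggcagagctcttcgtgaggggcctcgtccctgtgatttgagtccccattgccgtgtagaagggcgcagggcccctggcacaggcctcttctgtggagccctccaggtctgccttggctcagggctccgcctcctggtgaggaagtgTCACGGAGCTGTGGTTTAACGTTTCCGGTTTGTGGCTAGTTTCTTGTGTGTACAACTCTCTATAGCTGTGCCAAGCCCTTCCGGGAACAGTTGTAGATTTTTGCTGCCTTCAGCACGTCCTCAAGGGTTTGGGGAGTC
TMCC1, minus strand, chr3:129724064-129724363: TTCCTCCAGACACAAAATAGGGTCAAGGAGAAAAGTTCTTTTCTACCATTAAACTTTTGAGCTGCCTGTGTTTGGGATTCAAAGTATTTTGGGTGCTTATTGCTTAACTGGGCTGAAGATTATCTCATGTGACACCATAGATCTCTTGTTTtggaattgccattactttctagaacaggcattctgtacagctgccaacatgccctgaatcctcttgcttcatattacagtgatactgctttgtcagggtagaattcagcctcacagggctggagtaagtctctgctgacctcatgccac
LOC124903129, plus strand, chr13:20824694-20824993: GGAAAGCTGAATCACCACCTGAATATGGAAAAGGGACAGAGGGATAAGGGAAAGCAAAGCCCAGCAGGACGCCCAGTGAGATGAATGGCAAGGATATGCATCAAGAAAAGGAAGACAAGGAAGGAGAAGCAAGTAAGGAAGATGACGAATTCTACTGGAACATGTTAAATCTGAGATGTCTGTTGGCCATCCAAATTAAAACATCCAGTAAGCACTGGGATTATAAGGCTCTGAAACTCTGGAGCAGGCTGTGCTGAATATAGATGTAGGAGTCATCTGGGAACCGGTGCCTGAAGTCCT

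The region over the LINC00973 window, a long noncoding RNA start in intron 2 of 3 of ENST00000474798.1, had 84, 128 and 92 counts in DMSO replicates 1 to 3, 7, 4 and 5 in osimertinib DTP and 24, 33 and 1 in the AZD5153 group. Its log2 fold change in osimertinib DTP against DMSO was −4.08 ± 0.77 (SE, adjusted p = 0.00536), and the groups did not overlap. The HDAC4 window, at an inner start in intron 2 of 26 of this class IIa histone deacetylase gene, lay under a region with 104, 148 and 155 counts in DMSO, 21, 14 and 13 in osimertinib DTP, followed by 17, 12 and 16 in the AZD5153 group (−2.93 ± 0.58, adjusted p = 0.00631). Both regions were thus high in DMSO alone. The TMCC1 region, in intron 3 of 5 of an endoplasmic reticulum membrane protein gene, had 6, 4 and 5 counts in DMSO, 63, 30 and 60 in osimertinib DTP, followed by 75, 50 and 8 in the AZD5153 group (3.44 ± 0.68, adjusted p = 0.00638). The region over LOC124903129, in intron 7 of 22 of XPO4, a nuclear transport receptor, had 4, 7 and 1, then 40, 31 and 64, then 51, 64 and 6 counts (3.58 ± 0.78, adjusted p = 0.00998). Here the DMSO libraries were the lowest, and AZD5153 replicate 3 came close to them.

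Short motifs were searched on both strands of these windows. The LINC00973 window held matches to the AP-1, TEAD and RUNX letters, the HDAC4 window to ETS and RUNX, the TMCC1 window to CEBP and GATA, and the LOC124903129 window to AP-1 and the E-box. The AP-1 letters TGANTCA were present in 33.6% of the 140 overlapped windows, against 7.71% of all 35116 windows of the same length. RUNX letters (TGTGGT) were in 27.1% against 13.1%. TEAD letters (GGAATG) were in 22.9% against 14.03%. CEBP letters (TTGCNNAA) were in 18.6% against 10.5%. Rarer in the overlapped windows were the ETS letters (CCGGAA), in 8.57% against 17.2%. The GC box GGGCGG was rarer too, in 22.1% against 45.0%. FOX letters (TGTTTAC) were in 6.43% against 3.42%. SOX letters (ACAATG) were in 16.4% against 10.8%. The E-box CACCTG was in 21.4% against 20.6%. GATA letters (AGATAA) were in 10.7% against 10.3%. A match is a description of the letters and not a binding site, and base content was not matched between the overlapped windows and the rest.

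The first question was how much of the H3K27ac signal the introns held in each group. Intronic regions took 26.2%, 27.01% and 26.9% of the annotated counts in DMSO replicates 1 to 3, 26.8%, 18.3% and 29.4% in osimertinib DTP, and 29.3%, 30.1% and 13.99% in the AZD5153 group. The means were 26.7% ± 0.442, 24.9% ± 5.84 and 24.5% ± 9.08 (SD, n = 3). Osimertinib DTP replicate 2 and AZD5153 replicate 3 were the low libraries, and both were also the ones with the highest median level at promoter regions (19.5 and 17.01 CPM). The differences from DMSO, −1.82 and −2.21 percentage points, were smaller than the spread between replicates (exact permutation tests, two-sided, p = 0.8 and 1.0; 0.1 is the smallest p that 3 libraries against 3 allow). Without AZD5153 replicate 3 the AZD5153 mean was 29.7% ± 0.526, which was 3.03 points above DMSO, so the sign of this difference rested on that library. Leaving out osimertinib DTP replicate 2 likewise turned its difference to 1.46 points.

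First introns held about the same part of the intronic counts in DMSO and in osimertinib DTP. First introns held 39.9%, 39.1% and 40.1% of the intronic counts in DMSO, 39.7%, 39.9% and 39.6% in osimertinib DTP, followed by 38.6%, 38.6% and 41.9% in the AZD5153 group. AZD5153 replicate 3 was the highest of all 9 libraries, and the other libraries spanned 38.6% to 40.1%. The means differed from DMSO by 0.0593 and −0.0083 points (exact permutation tests, two-sided, p = 0.9 and 1.0), which is inside the SDs of 0.501, 0.163 and 1.93 points. Without AZD5153 replicate 3 the AZD5153 mean differed from DMSO by −1.12 points. The remaining 2 libraries lay below every library of the other groups (exact permutation test, two-sided, p = 0.2). No smaller p is possible for 2 libraries against 3. Taken over intronic and promoter counts together, the first-intron share differed by −1.39 points in osimertinib DTP, with the low osimertinib DTP replicate 2 in the mean.

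**Figure D1:**
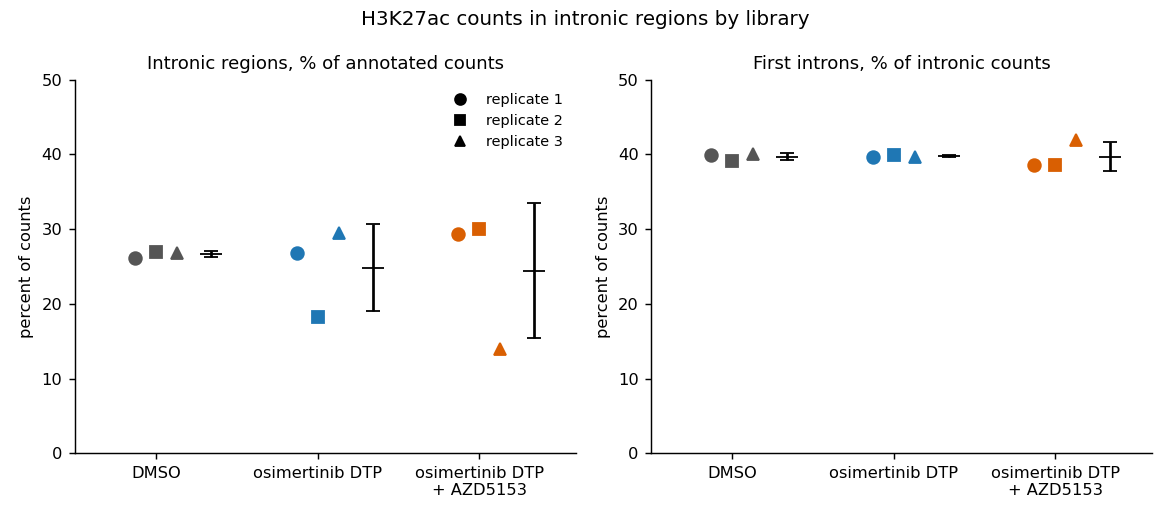
Percent of annotated counts that fell in intronic regions (left) and percent of intronic counts that fell in first introns (right), for each of the 9 H3K27ac libraries. Symbols give the replicate, and the bar beside each group gives the mean and SD (n = 3). Osimertinib DTP replicate 2 (18.3%) and AZD5153 replicate 3 (13.99%) sit below the others on the left, while all libraries lie between 38.6% and 41.9% on the right.

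The median intronic region had 5.62, 7.23 and 6.03 CPM in DMSO, 5.74, 5.84 and 6.34 in osimertinib DTP, followed by 7.01, 7.68 and 3.09 in the AZD5153 group. In AZD5153 replicate 3, 13.5% of intronic regions had 3 counts or fewer, against 0.334% to 2.80% in the other libraries. Peaks called per library by the authors overlapped 75.0% to 80.8% of the intronic regions in 8 lists and 46.4% in that of AZD5153 replicate 3. Every intronic region was under a peak in at least 1 list, but only 5141 (24.2%) were under a peak in all 9, against 65.9% of promoter regions. Of the 21266 intronic regions, 2748 were under a peak in all osimertinib DTP lists and no DMSO list, and 2435 the reverse. For the AZD5153 group the counts were 1462 and 2585, where the 1462 also had to be in the sparse list of replicate 3. The same counts over other regions are not given here, so these are no result about introns. The median fold enrichment of the overlapping peaks over input was 6.23 to 12.3 by library.

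Osimertinib DTP was then compared with DMSO region by region. Regions were called at an adjusted p under 0.05 (edgeR quasi-likelihood test, Benjamini-Hochberg adjustment over all 157919 tested regions). In introns, 2147 regions were higher (10.1%) and 2089 lower (9.82%). Over all tested regions, 5.58% were higher and 5.13% lower, and within 1 kb of a start 676 of 24296 promoter regions were higher and 450 lower. Intronic regions were called in 19.9% of cases, promoter regions in 4.63% and distal intergenic regions in 22.3%, so introns stood near the intergenic regions and far above promoters. The called changes had an absolute log2 fold change of at least 1.59 and a median of 2.67. These sizes depend on what the test could call with 3 libraries per group, and smaller changes were not called. Merged within 1000 bp, the called regions made 1483 higher and 1469 lower loci.

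How many regions were called depended on the libraries. Without AZD5153 replicate 3, which belongs to neither group but enters the same fit, the test called 4440 higher and 4552 lower. Without DMSO replicate 2 it called 232 and 176, without DMSO replicate 1 1144 and 1296, and without DMSO replicate 3 459 and 594. Leaving out osimertinib DTP replicate 1, 2 or 3 gave 1441 and 866, 1015 and 495, and 941 and 454. DESeq2 called 2694 higher and 3448 lower. The median log2 fold change of intronic regions was −0.03, against 0.15 over all regions, and became −0.09 without TMM and −0.12 with a loess offset, so changes of about 0.1 have no fixed sign.

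Later introns were called somewhat more often than first introns. Of the first-intron regions 754 were higher and 786 lower (18.5%), and of the later-intron regions 1393 were higher and 1303 lower (20.8%). The called share also rose with distance from a TSS. In first introns it was 15.97% at 3000 to 10000 bp, 18.4% at 10000 to 30000 bp and 23.3% beyond, and in later introns it was 18.2%, 21.1% and 23.5%. Beyond 30000 bp, first and later introns were thus about level. These shares were not tested against each other, because neighbouring regions are not independent.

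The level of a region went with its call. The annotated regions were split into 4 classes of equal number by mean level, bounded at 4.83, 7.87 and 14.8 CPM. The called share of intronic regions was 29.3%, 18.5%, 16.02% and 8.57% from the lowest to the highest class. Promoter regions gave 12.9%, 6.52%, 3.93% and 1.58%, and distal intergenic regions 35.0%, 21.3%, 17.5% and 7.84%. In each class introns stood above promoters. In the lowest class 812 intronic regions were higher and 1211 lower, while in the highest class 213 were higher and 65 lower. The mean level was taken over all 9 libraries, most of them from the drug groups. A region low in both drug groups thus has a lower mean, and one high in both a higher mean. The split by direction is therefore no result about level.

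**Figure D2:**
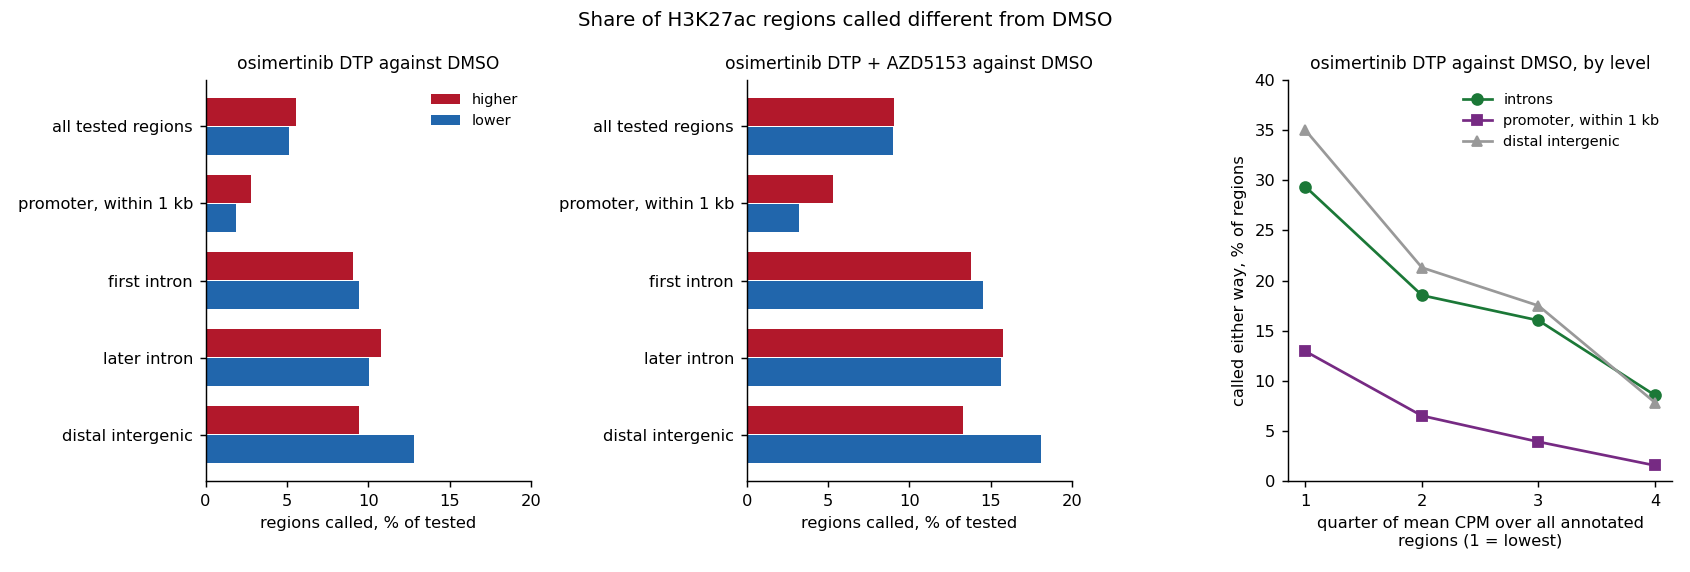
Left and middle: percent of tested regions called higher (red) or lower (blue) against DMSO for all regions, promoter regions within 1 kb of a start, first introns, later introns and distal intergenic regions, first for osimertinib DTP and then for the AZD5153 group. Right: percent called in either direction in osimertinib DTP, by the 4 classes of mean CPM of annotated regions. Introns fall from 29.3% in the lowest class to 8.57% in the highest, close to the intergenic line and above the promoter line.

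By host gene, calls were spread widely but some genes moved over most of their introns. A called region was present in 1698 hosts, with a higher region in 952 and a lower one in 853, and both in 107. Among the 1300 hosts with at least 5 regions, 74 had at least 50% of their regions higher, 78 had at least 50% lower, 93 had calls in both directions and 510 had none. Summed over its intronic regions and tested again, the host was higher for 836 of 4281 genes (19.5%) and lower for 778 (18.2%). Without AZD5153 replicate 3 the sums gave 1212 and 1095, without osimertinib DTP replicate 2 621 and 490, without DMSO replicate 2 505 and 462, and without DMSO replicate 3 528 and 496. The genes with the most called regions in each direction are described next, with levels as CPM summed over the intronic regions of the gene and folds from the test of the sums.

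LINC00662, a long noncoding RNA gene (chr19:27693252-27789083 for its regions), moved as a block. Its 20 intronic regions, 13 of them in the first intron, summed to 8.07, 8.26 and 7.34 CPM in DMSO replicates 1 to 3, 122, 219 and 294 in osimertinib DTP and 25.3, 64.8 and 9.08 in the AZD5153 group. The log2 fold change of the sum in osimertinib DTP was 4.72 ± 0.47 (SE, adjusted p = 0.000308). All 20 regions were called higher, with log2 fold changes from 3.32 to 6.14. The AZD5153 libraries lay between the other groups, with replicate 3 nearly at the DMSO level.

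TTC28, which encodes a tetratricopeptide repeat protein, rose on chromosome 22 from 15.1, 9.71 and 12.2 CPM in DMSO to 131, 105 and 102 in osimertinib DTP (3.16 ± 0.45, adjusted p = 0.000962; 11 of 12 regions higher). ABLIM1, an actin-binding LIM protein with 28 of its 29 regions in first introns, went from 122, 133 and 79.6 CPM to 276, 252 and 248 (1.23 ± 0.24, adjusted p = 0.00302; 15 regions higher). CASC15, a long noncoding RNA gene, had 47.3, 64.7 and 49.7 CPM in DMSO and 121, 147 and 187 in osimertinib DTP (1.504 ± 0.26, adjusted p = 0.00192; 12 of 21 regions higher). In all these genes every osimertinib DTP library was above every DMSO library. BACH2, a transcriptional repressor of the CNC family, had 37.4, 81.2 and 59.3 CPM in DMSO and 93.1, 190 and 260 in osimertinib DTP (1.63 ± 0.42, adjusted p = 0.013; 11 of 17 regions higher), and lost its call without osimertinib DTP replicate 3 (1.295, adjusted p = 0.0585).

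CRIM1, a membrane protein that binds bone morphogenetic proteins, had 9 of 40 regions higher and summed to 284, 289 and 235 CPM in DMSO and 480, 388 and 517 in osimertinib DTP (0.78 ± 0.22, adjusted p = 0.0187). LPP, a LIM protein of focal adhesions, had 9 of 29 higher and went from 164, 219 and 202 CPM to 256, 323 and 347 (0.67 ± 0.23, adjusted p = 0.042). Both calls on the sums were weak. CRIM1 lost its call without DMSO replicate 2 or 3 or osimertinib DTP replicate 1 or 3 (adjusted p up to 0.091), and LPP lost it without any 1 of the 6 DMSO and osimertinib DTP libraries or AZD5153 replicate 1 (up to 0.15) and with the replicate number as a block (0.0641). TENM2, a teneurin of cell adhesion, had 10 of 31 regions higher and 1 lower, and its sum did not pass the test (0.82 ± 0.31, adjusted p = 0.0586).

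Of the genes that fell, SHB, an SH2-domain adaptor in receptor tyrosine kinase signalling, had the most called regions. Its 33 regions on chromosome 9, of which 20 were assigned to another gene, summed to 310, 496 and 437 CPM in DMSO and 114, 155 and 117 in osimertinib DTP (−1.67 ± 0.34, adjusted p = 0.00402), and 21 were lower. KCNMA1, the pore-forming subunit of the BK potassium channel, had 345, 557 and 391 CPM in DMSO and 102, 106 and 96.3 in osimertinib DTP (−2.05 ± 0.22, adjusted p = 0.000333). In KCNMA1, 18 of 25 regions were lower and 1 was higher. HIPK2, a nuclear serine/threonine kinase, had 439, 641 and 614 CPM in DMSO and 248, 255 and 285 in osimertinib DTP (−1.09 ± 0.23, adjusted p = 0.00504; 13 of 33 regions lower). The groups did not overlap for any of these sums.

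ADORA2B, the adenosine A2B receptor, held all of its 21 regions in intron 1, and their sum fell from 324, 468 and 412 CPM to 145, 105 and 93.0 (−1.78 ± 0.30, adjusted p = 0.00189; 11 regions lower). ABCC4, an efflux transporter of cyclic nucleotides and drugs, had 129, 237 and 184 CPM in DMSO and 67.6, 38.4 and 39.98 in osimertinib DTP (−1.86 ± 0.32, adjusted p = 0.00189), with 10 of 15 regions lower and 1 higher. CDCP1, a transmembrane glycoprotein phosphorylated by Src kinases, fell from 292, 513 and 392 CPM to 126, 109 and 97.2 (−1.81 ± 0.24, adjusted p = 0.000755; 9 of 19 regions lower). The noncoding genes LOC284788 and LOC339166 fell by 2.07 and 2.52 on the log2 scale (SE 0.35 and 0.39, adjusted p = 0.00194 and 0.00128), each with 11 regions lower. All 12 regions in LOC339166 were assigned to another gene. TANGO6, a gene of Golgi transport, had 216, 319 and 263 CPM in DMSO and 87.8, 90.0 and 79.4 in osimertinib DTP (−1.61 ± 0.21, adjusted p = 0.000752; 9 of 20 regions lower).

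Not all hosts with the most intronic regions had a called sum. ZMIZ1, a PIAS-like coregulator, had 61 regions, of which 1 was called (sum 0.28, adjusted p = 0.723). RAD51B, of homologous recombination, had 55, with 1 higher and 4 lower (−0.26, adjusted p = 0.327), and PVT1, a long noncoding RNA gene, had 49 and 0 called (0.18, adjusted p = 0.738). PALLD, an actin-associated protein, had 7 of 56 regions higher and 2 lower (0.63 ± 0.21, adjusted p = 0.0393), and AOPEP, an aminopeptidase, had 5 of 48 higher (0.61, adjusted p = 0.024). The PALLD call was lost without any 1 of the 6 DMSO and osimertinib DTP libraries or AZD5153 replicate 2 (adjusted p 0.0502 to 0.152), and the AOPEP call without any DMSO library or osimertinib DTP replicate 2 or 3 (0.0543 to 0.11).

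**Figure D3:**
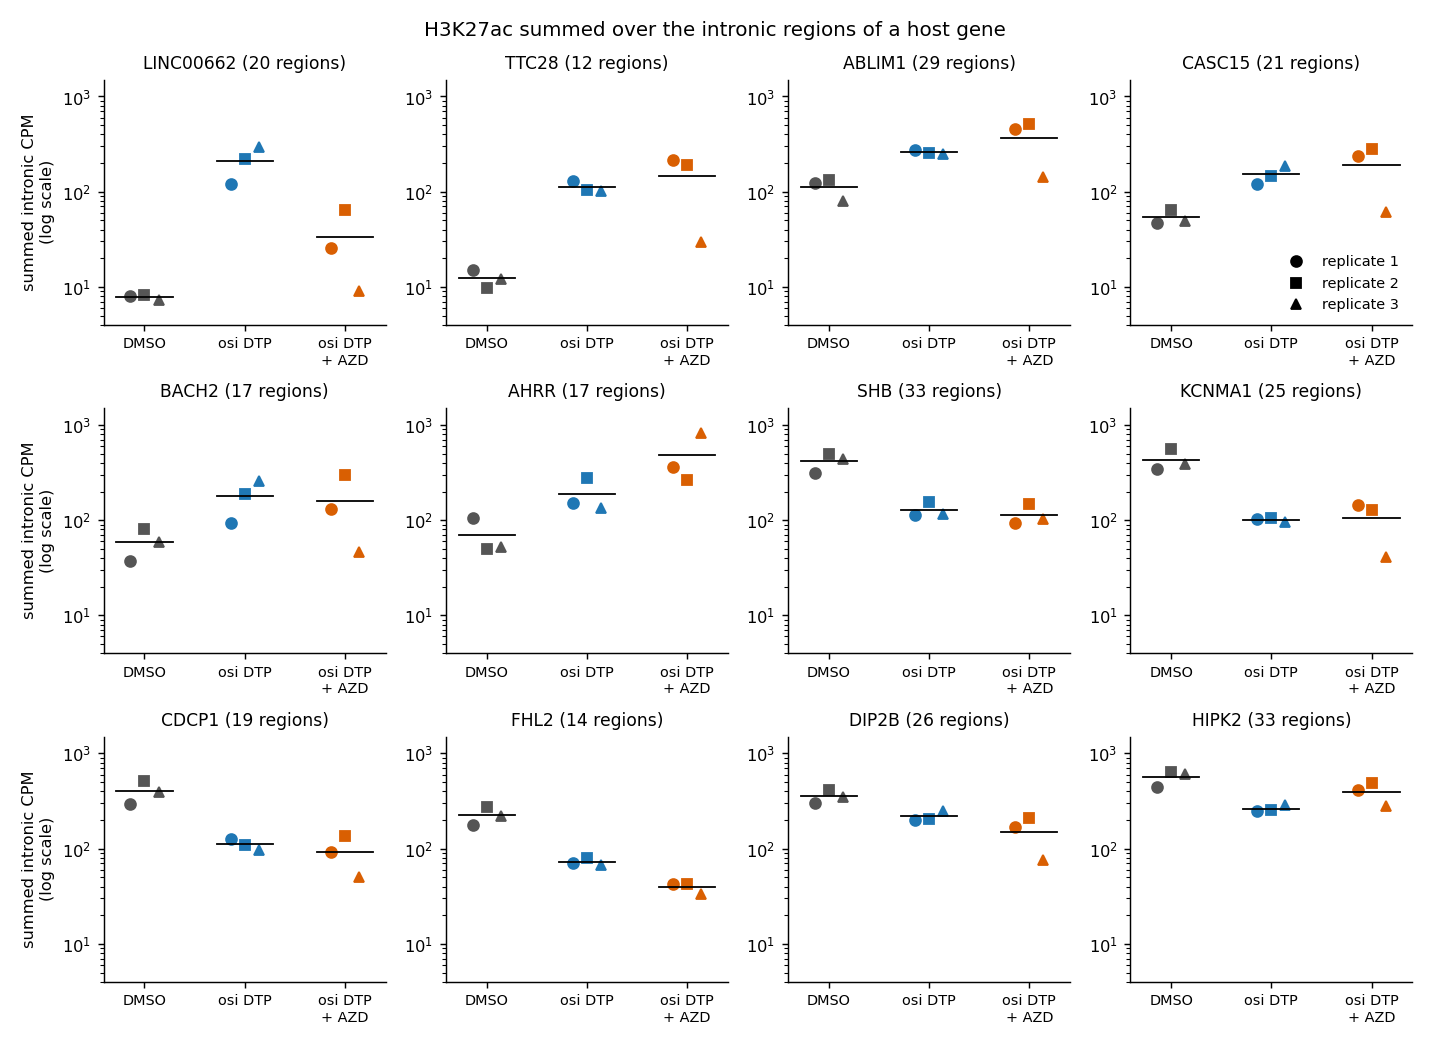
CPM summed over the intronic regions of 12 host genes on a log scale, by library. Symbols give the replicate, and the line gives the group mean (osi, osimertinib; AZD, AZD5153). LINC00662 spans 7.34 to 8.26 CPM in the DMSO libraries, 122 to 294 under osimertinib and 9.08 to 64.8 with AZD5153, and SHB, KCNMA1, CDCP1 and FHL2 are highest in all DMSO libraries.

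Among single regions, the largest rises in first introns included one in NPR3, the clearance receptor for natriuretic peptides. It lay at chr5:32692690-32693191 in intron 1 of 5 and had 4, 3 and 1 counts in DMSO, 174, 151 and 125 in osimertinib DTP, followed by 344, 270 and 79 in the AZD5153 group (5.94 ± 0.72 in osimertinib DTP, adjusted p = 0.00273). A region in intron 1 of 6 of LINC00662 (chr19:27763198-27763699) had 1, 2 and 0 counts in DMSO, 46, 53 and 118 in osimertinib DTP, followed by 5, 6 and 2 in the AZD5153 group. With 3 DMSO counts in all, the ratio of osimertinib DTP to DMSO was 80.4 (95% interval 27.2 to 393, counting error only), and it was 165 without DMSO replicate 2. In intron 1 of 14 of ARHGAP6, a GTPase-activating protein (chrX:11469821-11470322), DMSO had 1, 1 and 1 counts and osimertinib DTP 99, 31 and 60, a ratio of 70.4 (23.7 to 344). All of these were near the floor in DMSO.

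The largest falls in later introns included SNX9, a sorting nexin of endocytosis (chr6:157771188-157771689, intron 2 of 5), with 46, 105 and 51 counts in DMSO, 2, 0 and 0 in osimertinib DTP, followed by 4, 2 and 3 in the AZD5153 group. The DMSO to osimertinib DTP ratio was 90.9 (24.8 to 755), and without osimertinib DTP replicate 1 the group was at 0 and DMSO was at least 37.6-fold higher, taking a floor of 3 counts over the group. CCDC102B (chr18:68917030-68917531, intron 6 of 7) had 57, 99 and 50 counts in DMSO, 2, 1 and 1 in osimertinib DTP, followed by 3, 3 and 2 in the AZD5153 group (−5.43 ± 0.75, adjusted p = 0.00273). GDPD4, a glycerophosphodiester phosphodiesterase gene (chr11:77250525-77251026, intron 10 of 15), had 104, 176 and 132, then 3, 2 and 6, then 4, 1 and 0 counts (−5.06 ± 0.73, adjusted p = 0.00273). Here both drug groups were near 0.

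The promoter regions of the same host genes were compared next, since they did not enter the sums. Of the 583 hosts with a higher intronic sum that also had a promoter region, 87 (14.9%) had a promoter region higher and 6 (1.03%) one lower. Of the 491 with a lower intronic sum, 59 had a promoter region lower and 15 (3.05%) one higher. Hosts whose sum was not called gave 90 of 1977 (4.55%) and 76 (3.84%). Most hosts with a changed intronic sum thus had no promoter region called.

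Gene lists of pathways that bear on this cell type and treatment were counted over their intronic regions. Across all intronic regions, 10.1% were higher and 9.82% lower, with a median log2 fold change of −0.03. Without AZD5153 replicate 3 the shares over all intronic regions were 20.9% and 21.4%. Without osimertinib DTP replicate 2, 1015 of all 21266 intronic regions were higher and 495 lower. List counts without a library are read against these, since the number of calls moved over all introns. Of the output and feedback genes of MAPK signalling, 6 of 20 had intronic regions, and of these 19 regions 0 were higher and 5 lower (median −1.66). The counts were 0 and 13 without AZD5153 replicate 3 and 0 and 3 without osimertinib DTP replicate 2. DUSP4, a phosphatase of MAP kinases, had 37.3, 58.3 and 45.6 CPM in DMSO and 6.12, 5.98 and 4.33 in osimertinib DTP (−3.07 ± 0.33, adjusted p = 0.000333). SPRED2, a Ras pathway inhibitor, had 89.7, 186 and 118 and then 43.8, 31.5 and 26.9 CPM (−1.88 ± 0.31, adjusted p = 0.00166). For both genes every osimertinib DTP library was below every DMSO library.

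Integrins and laminins, the receptors and components of the basement membrane, had 4 of 93 regions higher and 25 lower (median −1.11), and the sums of 9 of 16 genes were lower and 0 higher. Without osimertinib DTP replicate 2, 0 were higher and 3 lower (median −0.90), and without AZD5153 replicate 3 8 were higher and 44 lower. ITGB6, the beta subunit of an epithelial integrin, fell from 383, 518 and 401 CPM to 148, 144 and 147 (−1.55 ± 0.23, adjusted p = 0.00112; 8 of 18 regions lower). ITGA6, a laminin receptor subunit, had 42.3, 92.8 and 56.8 CPM in DMSO and 7.36, 10.0 and 7.05 in osimertinib DTP (−2.92 ± 0.37, adjusted p = 0.000697), and all 4 of its regions were lower. LAMA4, a laminin alpha chain, likewise had all 4 regions lower (−2.22 ± 0.47, adjusted p = 0.00488).

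Lung and epithelial lineage factors had 2 of 55 regions higher and 8 lower (median −0.92), which became 3 and 24 without AZD5153 replicate 3 and 1 and 2 without osimertinib DTP replicate 2. GRHL1 and GRHL2, grainyhead factors of epithelia, differed in direction. GRHL1 rose from 3.54, 5.16 and 4.73 CPM to 11.47, 24.5 and 42.8 (2.54 ± 0.56, adjusted p = 0.00588), and GRHL2 had 85.3, 154 and 133 CPM in DMSO and 34.7, 46.5 and 73.4 in osimertinib DTP (−1.25 ± 0.35, adjusted p = 0.019). The GRHL2 call was lost without DMSO replicate 2 or 3 or osimertinib DTP replicate 1 or 2 (adjusted p 0.0631 to 0.0742). Genes of epithelial-mesenchymal transition had 0 of 56 regions higher and 5 lower (median −0.64), which became 4 and 19 without AZD5153 replicate 3 and 0 and 1 without osimertinib DTP replicate 2. Their CDH1, E-cadherin, had 134, 283 and 232 and then 72.9, 85.9 and 103 CPM (−1.28 ± 0.35, adjusted p = 0.017), with the call lost without the same 4 libraries as for GRHL2 (0.0608 to 0.0674).

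Nuclear receptors and their coregulators had 14 of 79 regions higher and 1 lower (median 0.19), which came to 23 and 6 without AZD5153 replicate 3 and to 2 and 0 without osimertinib DTP replicate 2. In that last fit, 2 of 79 is a smaller share than the 1015 higher of all 21266 intronic regions. RARB, a retinoic acid receptor, had all 3 regions higher and went from 2.72, 2.27 and 0.905 CPM to 12.05, 16.7 and 22.8 (3.11 ± 0.55, adjusted p = 0.00219). THRB, a thyroid hormone receptor, had 51.6, 62.7 and 34.6 CPM in DMSO and 113, 125 and 143 in osimertinib DTP (1.38 ± 0.30, adjusted p = 0.00573). NCOA2, a coactivator of these receptors, had 5 of 6 regions higher (1.98 ± 0.35, adjusted p = 0.00216). The osimertinib DTP libraries were above the DMSO libraries in all 3 genes.

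YAP and TAZ target genes had 19 of 182 regions higher and 8 lower (median 0.45), close to the share of all intronic regions for rises. The counts were 42 and 19 without AZD5153 replicate 3 and 11 and 2 without osimertinib DTP replicate 2. Within this list, LATS2, a kinase that restrains YAP, rose from 16.1, 19.4 and 15.7 CPM to 49.3, 81.0 and 52.4 (1.83 ± 0.43, adjusted p = 0.00807), and NT5E, the ecto-enzyme CD73, fell from 51.1, 81.7 and 65.6 CPM to 10.7, 9.74 and 10.6 (−2.65 ± 0.31, adjusted p = 0.000587). Receptor tyrosine kinases had 7 of 144 regions higher and 12 lower (median −0.38), with 16 and 34 without AZD5153 replicate 3 and 3 and 2 without osimertinib DTP replicate 2. PDGFRA had 9.89, 8.67 and 4.83 CPM in DMSO and 38.7, 45.4 and 37.6 in osimertinib DTP (2.38 ± 0.32, adjusted p = 0.000894), and NTRK2, the BDNF receptor, fell by 2.22 on the log2 scale (SE 0.43, adjusted p = 0.00336). The intronic sum of IGF1R, with 21 regions, had a log2 fold change of −0.08 (adjusted p = 0.843).

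Of the remaining lists, AP-1 factors had 3 of 19 regions higher and 0 lower (median 0.47; 4 and 6 without AZD5153 replicate 3), with ATF3, a stress-induced factor, at 7.16, 16.2 and 8.75 CPM in DMSO and 19.98, 43.6 and 44.7 in osimertinib DTP (1.79 ± 0.37, adjusted p = 0.00426). TGF-beta pathway genes had 3 of 106 higher and 7 lower (median −0.11), with 13 and 20 without AZD5153 replicate 3 and 1 and 0 without osimertinib DTP replicate 2. Axon guidance genes had 13 of 144 higher and 6 lower (median 0.35), but 25 and 27 without AZD5153 replicate 3, which turns the balance, and 5 and 2 without osimertinib DTP replicate 2. Among them, the 26 regions of EFNA5, an ephrin ligand, all had log2 fold changes above 0 (sum 0.95 ± 0.28, adjusted p = 0.0237, lost without any DMSO library or osimertinib DTP replicate 3, where it was 0.062 to 0.1). Of the BET and P-TEFb control genes, 1 of 9 had intronic regions, with 0 of 4 called (2 higher without AZD5153 replicate 3). Markers of leukocytes, endothelium and fibroblasts had 2 of 19 regions higher and 0 lower (median −0.22), both in PDGFRB, with 5 and 0 without AZD5153 replicate 3 and 0 and 0 without osimertinib DTP replicate 2. The sign of no list median against DMSO in osimertinib DTP changed with DESeq2, without TMM or with the loess offset.

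**Figure D4:**
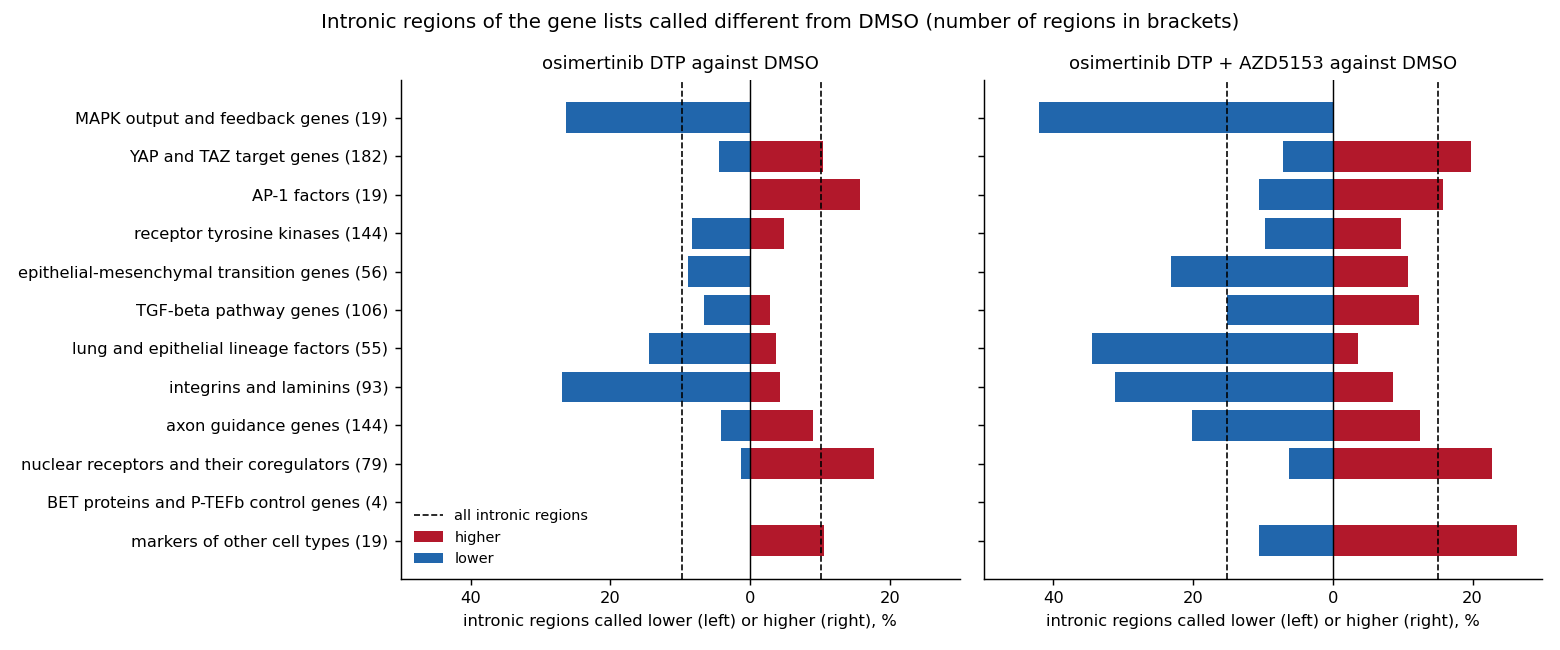
Percent of the intronic regions of 12 gene lists called lower (left of 0) or higher (right of 0) against DMSO, first for osimertinib DTP and then for the AZD5153 group, with the number of regions in brackets. Dashed lines mark the percents over all intronic regions. MAPK output genes, integrins and laminins, and lineage factors reach past the dashed line on the lower side in both panels. Nuclear receptors, AP-1 factors, YAP and TAZ targets and markers of other cell types do so on the higher side. For osimertinib DTP, the YAP and TAZ targets and the markers only just pass it.

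Within a gene, first and later introns could move apart. The intron number is that of the transcript named for each region, so the sums of a gene can join introns of different transcripts. For the 763 hosts with both, the log2 ratio of first-intron to later-intron sums was compared between groups (limma, Benjamini-Hochberg adjustment), and the ratio rose in 154 hosts (20.2%) and fell in 155 (20.3%) in osimertinib DTP. The median absolute change among them was 1.93. Of these 309 genes, 220 had an intronic sum that was not called, and in 187 the mean first-intron and later-intron levels moved in opposite directions. The 309 genes were picked for a changed ratio, and that choice by itself favours opposite directions. The same counts over all 763 hosts are not given here, so the 220 and the 187 only describe the picked genes. When AZD5153 replicate 3 was left out the ratio rose in 193 and fell in 198. Without DMSO replicate 2 it rose in 107 and fell in 98. The genes with the smallest adjusted p are given next, and each of their calls against DMSO held when any 1 library was left out.

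In NPR3 the 3 first-intron regions went from 0.816, 1.03 and 1.21 CPM in DMSO to 38.8, 37.6 and 32.4 in osimertinib DTP, while its 3 later-intron regions went from 25.4, 50.7 and 36.7 to 13.5, 11.8 and 13.2. The log2 ratio rose by 6.51 ± 0.32 (SE, limma adjusted p = 2.46e-07). PAPPA2, a protease of insulin-like growth factor binding proteins, changed in its later introns, where it had 27.2, 70.9 and 43.5 CPM in DMSO and 2.87, 2.37 and 2.42 in osimertinib DTP. Its first-intron regions had 18.1, 33.8 and 25.5 and then 31.1, 52.3 and 73.7 CPM (ratio change 5.03 ± 0.44, limma adjusted p = 5.25e-05). CTIF, a cap-binding factor of translation, had first-intron sums of 4.72, 3.51 and 4.22 and then 17.6, 28.8 and 22.2 CPM, with later-intron sums of 49.1, 66.8 and 49.5 and then 19.8, 18.6 and 14 (4.06 ± 0.38). ZNF385D, a zinc finger gene, changed most in its later-intron region, with 0.544, 0.516 and 0.201 CPM there in DMSO and 6.79, 5.57 and 5.04 in osimertinib DTP, beside first-intron sums of 91.6, 61.4 and 34.8 and then 74.6, 59.0 and 49.3 (−3.49 ± 0.33, limma adjusted p = 5.25e-05). In HBG2, a globin gene, the ratio rose by 4.34 ± 0.41, with first-intron sums of 1.81, 2.07 and 0.905 CPM in DMSO and 14.7, 21.8 and 17.02 in osimertinib DTP.

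**Figure D5:**
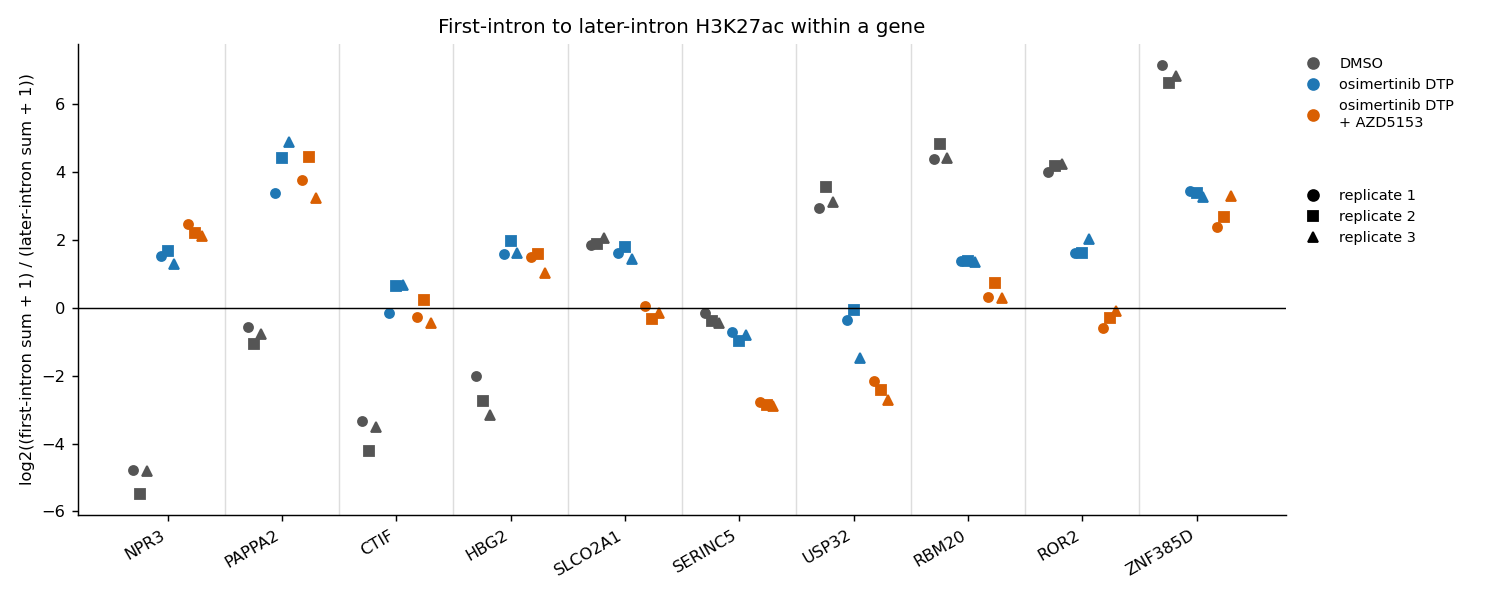
Log2 ratio of first-intron to later-intron H3K27ac, after adding 1 to each sum, for 10 genes by library. Colours give the group and symbols the replicate. NPR3, PAPPA2, CTIF and HBG2 lie higher in both drug groups than in DMSO, USP32, RBM20, ROR2 and ZNF385D lower, and in SERINC5 the AZD5153 libraries stand below both other groups.

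The AZD5153 group was compared with DMSO in the same way, and it shares the DMSO libraries with the comparison above, so the values are set side by side without a test between them. In introns, 3187 regions were higher (15.0%) and 3228 lower (15.2%), against 9.05% and 9.01% of all tested regions. First introns gave 1150 and 1208 (28.3%), later introns 2037 and 2020 (31.4%), promoter regions 1292 and 773 (8.50%) and distal intergenic regions 1539 and 2094 (31.4%). Without AZD5153 replicate 3, 5860 were higher and 4369 lower. Without DMSO replicate 2, 1112 were higher and 1312 lower, without DMSO replicate 3 1155 and 1700, and without AZD5153 replicate 1 2021 and 2127. The median intronic log2 fold change was 0.05, and it was −0.16 without TMM and −0.04 with the loess offset, so its sign was not fixed.

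Summed by host, 1004 genes were higher (23.5%) and 908 lower (21.2%), and 1242 and 1201 without AZD5153 replicate 3. Several genes that had moved in osimertinib DTP had like values here, and others did not. TTC28 stood at 217, 191 and 29.6 CPM (3.35 ± 0.45, adjusted p = 0.000504), ABLIM1 at 452, 515 and 142 (1.67 ± 0.24, adjusted p = 0.00063; 21 regions higher, 1 lower), and CASC15 at 239, 278 and 61.5 (1.74 ± 0.26, adjusted p = 0.00074). KCNMA1 stood at 145, 128 and 40.6 (−2.08 ± 0.22, adjusted p = 0.000183), SHB at 92.9, 147 and 103 (−1.64 ± 0.34, adjusted p = 0.00334), and CDCP1 at 92.5, 134 and 50.6 (−2.06 ± 0.24, adjusted p = 0.000283). Replicate 3 was the lowest AZD5153 library in each of these genes but SHB, and in CASC15 it lay inside the DMSO range of 47.3 to 64.7 CPM. HIPK2, at 415, 495 and 281, did not pass the test against DMSO (−0.39 ± 0.23, adjusted p = 0.192). LINC00662 was higher by 1.91 ± 0.42 (adjusted p = 0.00472), with 5 of 20 regions called. ADORA2B stood at −1.08 (adjusted p = 0.0136; lost without DMSO replicate 3, 0.0530). BACH2 stood at 1.31 ± 0.42 (adjusted p = 0.0269; lost without any DMSO library or AZD5153 replicate 2, 0.0594 to 0.0992).

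Other hosts had more called regions here. PALLD had 15 of 56 regions higher and 2 lower (0.84 ± 0.21, adjusted p = 0.00958), and lost its call without DMSO replicate 3 (0.0510). AOPEP had 14 of 48 regions higher (0.93 ± 0.18, adjusted p = 0.00269), and its call held when any 1 library was left out. In both genes, however, AZD5153 replicate 3 lay below every DMSO library in CPM. PALLD had 1016, 995 and 297 CPM in the AZD5153 group against 420, 498 and 328 in DMSO. AOPEP had 876, 1178 and 358 CPM against 371, 469 and 399. The sums of ZMIZ1, RAD51B and PVT1 were not called (adjusted p = 0.0848, 0.325 and 0.122). AHRR, the repressor of the aryl hydrocarbon receptor, had 17 later-intron regions (chr5:371282-401396) that summed to 104, 50.3 and 52.4 CPM in DMSO, 152, 277 and 135 in osimertinib DTP, followed by 362, 264 and 819 in the AZD5153 group. Its sum was higher than in DMSO (3.32 ± 0.77, adjusted p = 0.00584; 15 regions higher), and the fold rested in part on AZD5153 replicate 3, without which it was 1.86 (adjusted p = 0.00258). In osimertinib DTP 2 regions were called and the sum was not (1.39 ± 0.72, adjusted p = 0.153). GNG7, a G-protein gamma subunit gene whose 39 regions were all assigned elsewhere, had 708, 939 and 1391 CPM against 458, 521 and 437 in DMSO (1.53 ± 0.52, adjusted p = 0.0331). That value was 0.52 without AZD5153 replicate 3 (adjusted p = 0.0448), and the call was lost without DMSO replicate 1, 2 or 3 (0.0768 to 0.102) and under the replicate block (0.0884). RASAL2, a GTPase-activating protein of Ras, had 13 of 34 regions higher and 2 lower (0.91 ± 0.29, adjusted p = 0.0265; lost without any DMSO library or AZD5153 replicate 1 or 2, 0.0656 to 0.0775, and under the block, 0.0545).

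FHL2, a LIM-domain coregulator, had 178, 277 and 222 CPM in DMSO, 71.0, 80.0 and 68.1 in osimertinib DTP, followed by 42.2, 42.8 and 33.4 in the AZD5153 group, where 13 of 14 regions were lower (−2.32 ± 0.30, adjusted p = 0.000475) against 8 in osimertinib DTP (−1.60 ± 0.29, adjusted p = 0.00261). DIP2B, with all 26 regions in first introns, had 301, 415 and 346, then 201, 207 and 246, then 167, 208 and 76.7 CPM, and 15 regions were lower in the AZD5153 group (−1.22 ± 0.19, adjusted p = 0.00077). CDK6, a G1 cyclin-dependent kinase, had 13 of 28 later-intron regions lower (−1.24, adjusted p = 0.0184; lost without DMSO replicate 2 or 3, 0.0659 and 0.0613). LOC101929705 had 14 of 17 first-intron regions lower (−1.90 ± 0.50, adjusted p = 0.0112), and −2.54 without AZD5153 replicate 3. Between the drug groups the libraries of FHL2 did not overlap.

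Single regions with the largest changes in the AZD5153 group showed the same order of size. A first-intron region of ZNF730, a zinc finger gene (chr19:23098498-23098999, intron 1 of 2), had 155, 345 and 273 counts in DMSO, 63, 19 and 59 in osimertinib DTP, followed by 3, 4 and 0 in the AZD5153 group. Against DMSO it fell by 2.39 in osimertinib DTP (SE 0.63, adjusted p = 0.0236, lost without DMSO replicate 2 or 3 or any osimertinib DTP library, 0.0722 to 0.143) and by 6.44 in the AZD5153 group (SE 0.82, adjusted p = 0.00114). A region in intron 5 of 10 of TPH2, an enzyme of serotonin synthesis (chr12:71958375-71958876), had 4, 2 and 0, then 96, 142 and 215, then 144, 290 and 20 counts (6.39 ± 0.97, adjusted p = 0.00132; 5.48 without AZD5153 replicate 2 and 7.22 without DMSO replicate 1). COL21A1, a collagen gene, had a first-intron region (chr6:56335347-56335848) with 104, 164 and 82, then 4, 1 and 3, then 1, 2 and 0 counts, a DMSO to AZD5153 ratio of 90.4 (30.7 to 440; 173 without AZD5153 replicate 2).

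Promoters of the same hosts gave 171 of 710 (24.1%) higher and 24 (3.38%) lower where the intronic sum was higher, and 91 of 591 (15.4%) lower and 31 (5.25%) higher where it was lower. Hosts whose sum was not called gave 175 of 1750 (10.0%) and 96 (5.49%). The lists are read against the 15.0% of all intronic regions that were higher and the 15.2% that were lower. Without AZD5153 replicate 3 these shares were 27.6% and 20.5%. MAPK output genes had 0 of 19 regions higher and 8 lower (0 and 12 without AZD5153 replicate 3), integrins and laminins 8 of 93 higher and 29 lower (13 and 40), lineage factors 2 of 55 higher and 19 lower (2 and 22), and nuclear receptors 18 of 79 higher and 5 lower (27 and 10). YAP and TAZ targets had 36 of 182 higher and 13 lower (73 and 20 without AZD5153 replicate 3), axon guidance genes 18 of 144 higher and 29 lower (55 and 34 without it), TGF-beta genes 13 of 106 higher and 16 lower (23 and 25), receptor tyrosine kinases 14 and 14 of 144 (28 and 26), transition genes 6 and 13 of 56 (6 and 19), AP-1 factors 3 and 2 of 19 (4 and 5) and BET and P-TEFb genes 0 of 4 (1 and 0). The median of the AP-1 list, 0.23, became −0.38 without AZD5153 replicate 3, and that of the TGF-beta list went from −0.10 to 0.09. Markers of other cell types had 5 of 19 regions higher and 2 lower (4 and 3), with a median log2 fold change of −0.55. The 5 higher regions were those of PDGFRB, a fibroblast and pericyte marker, which had 46.1, 17.1 and 16.6 CPM in DMSO and 133, 108 and 187 in the AZD5153 group (2.77, adjusted p = 0.00658; 1.85 without AZD5153 replicate 3 and 3.56 without DMSO replicate 1), while COL3A1 and DCN had no region. COL1A2, also a fibroblast gene, had 2 regions, 0 of them intronic. Its highest region had 3.45, 0.929 and 1.01 CPM in DMSO and 6.12, 7.38 and 3.93 in osimertinib DTP. In the AZD5153 group that region had 9.62, 1.86 and 32.7 CPM. The part of other cells in these values was not tested.

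The first-to-later ratio rose in 179 of 763 hosts (23.5%) and fell in 213 (27.9%) in the AZD5153 group, and without AZD5153 replicate 3 it rose in 203 and fell in 207. NPR3 rose further in the means, with first-intron sums of 82.8, 75.7 and 24.5 CPM (ratio change 7.28 ± 0.32, limma adjusted p = 7.12e-08). USP32, a deubiquitinase gene, had first-intron sums of 27.03, 35.1 and 25.04 CPM in DMSO, 14.9, 15.3 and 7.85 in osimertinib DTP, followed by 11.4, 8.03 and 4.83 in the AZD5153 group, while its later introns had 3.45, 2.89 and 2.82, then 19.4, 16 and 22.2, then 51.2, 43.6 and 32.5 (−5.63 ± 0.42, limma adjusted p = 8.52e-06). The first-intron and later-intron sums of USP32 therefore traded places. RBM20, a splicing regulator, had later-intron sums of 1.18, 1.96 and 2.01, then 11.2, 11.6 and 14.2, then 38.8, 28.2 and 5.41 CPM, and its first-intron sums overlapped between groups (−4.10 ± 0.31, limma adjusted p = 8.52e-06).

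The AZD5153 group was last compared with osimertinib DTP, the groups that differ in the drug given over the last 3 days. No intronic region was called by edgeR, as over all tested regions (0.0%), although 1227 intronic regions had an unadjusted p under 0.05, and DESeq2 called 5 higher and 14 lower. Without AZD5153 replicate 3, edgeR called 12 intronic regions higher and 11 lower, against 0.0637% and 0.0587% of all tested regions, and 4400 had an unadjusted p under 0.05. Host sums gave 0 calls in edgeR (0.0%), with 538 at an unadjusted p under 0.05, while DESeq2 gave 59 higher and 67 lower, and edgeR without AZD5153 replicate 3 gave 31 and 75. These counts do not show that the drug groups are alike.

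LINC00662 showed the largest gap between the drug groups among the named hosts. All 20 of its regions had a log2 fold change below 0, and the sum differed by −2.81 ± 0.43 (adjusted p = 0.0844), which became −2.58 (adjusted p = 0.0240) without AZD5153 replicate 3 and −2.77 (adjusted p = 9.55e-07) in DESeq2. The sum of FHL2 differed by −0.72 (adjusted p = 0.358), and by −1.10 (adjusted p = 0.0240) without that library. AHRR differed by 1.93 ± 0.73 (adjusted p = 0.316), and by 0.45 without it. Of the regions called only when AZD5153 replicate 3 was left out, one in intron 3 of 3 of RAD18, a ubiquitin ligase of DNA damage tolerance (chr3:8882375-8882876), had 7, 7 and 7 counts in DMSO, 8, 9 and 12 in osimertinib DTP, followed by 101, 80 and 16 in the AZD5153 group (3.17, adjusted p = 0.0312; with all libraries 2.81, adjusted p = 0.682). Another in intron 1 of 4 of KIFC3, a kinesin (chr16:57842374-57842875), had 9, 6 and 10, then 17, 15 and 26, then 108, 130 and 22 (2.61, adjusted p = 0.0389). The ZNF730 region described above differed by −4.05 ± 0.78 (adjusted p = 0.440), and by −3.65 (adjusted p = 0.0404) without that library.

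The first-to-later ratio, which compares introns within a library, gave 3 calls among 763 genes (0.393%), all lower with AZD5153. SERINC5, a multipass membrane protein, had first-intron sums of 38.8, 54.8 and 49.98 CPM in DMSO, 24.6, 28.4 and 42.9 in osimertinib DTP, followed by 16.6, 20.01 and 5.22 in the AZD5153 group. Its later introns had 43.7, 72.2 and 69.0, then 40.5, 56.6 and 75.7, then 115, 148 and 39.8. The log2 ratio was lower than in osimertinib DTP by −2.01 ± 0.25 (limma adjusted p = 0.00482), in all 3 libraries, and the call held when any 1 library was left out (adjusted p up to 0.0480). SLCO2A1, a prostaglandin transporter, and ROR2, a receptor for WNT5A, gave −1.76 ± 0.30 and −2.07 ± 0.35 (limma adjusted p = 0.0253 for both), and each lost its call in 7 of 9 fits without 1 library (adjusted p up to 0.124 and 0.144). The later-intron region of ROR2 had 0.998, 1.34 and 1.01 CPM in DMSO, 2.87, 5.98 and 1.91 in osimertinib DTP, followed by 18.4, 13.03 and 18.4 in the AZD5153 group, with no overlap between groups.

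By chromosome, the median intronic log2 fold change in osimertinib DTP stood highest on chromosome 19 (0.38; 67 of 547 regions higher and 28 lower) and chromosome 22 (0.33; 59 of 473 higher and 20 lower), and lowest on chromosome X (−0.35; 43 of 473 higher and 75 lower). The medians over all regions of those chromosomes were 0.26, 0.08 and 0.13. In the AZD5153 group, chromosome 22 had 80 regions higher and 47 lower and chromosome X 58 and 88, and chromosome 4 had 192 of 934 higher and 115 lower. LINC00662 gave 20 of the 67 higher regions on chromosome 19 and TTC28 11 of the 59 on chromosome 22, so part of these counts comes from single loci.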

How the data were processed

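H3K27ac ChIP-seq was read in 9 libraries of H1975 cells, with 1 pooled input. The submitters' processing notes name BWA 0.7.17, MACS2 2.2.6, featureCounts 2.0.0, ChIPseeker 1.29.1 and hg38. The deposited count table holds raw reads per region from the authors, with the region's annotation and its distance to the nearest TSS. The authors' peak lists, one per library, give fold enrichment over input and −log10 p and q values from MACS2. How peaks were merged into regions is not given in the sources used here.

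Regions were tested with edgeR 4.0.16 (R 4.3.3; robust quasi-likelihood, TMM, filterByExpr with a minimum count of 10, all 9 libraries in 1 fit). Host sums used the same test on the summed intronic counts, with TMM factors from those sums. First-to-later log2 ratios had a pseudocount of 1 and a minimum mean of 10 counts, and were tested with limma 3.58.1. DESeq2 1.42.0 was an alternative. Shares were compared by exact permutation tests (scipy 1.17.1). Peaks were overlapped with bedtools 2.31.1 (at least 1 bp). Tables and figures used Python 3.11.15, pandas 2.3.3 and matplotlib 3.10.9. The scripts were tested on simulated data. Intervals and floors cover counting error only, since no molecular identifiers are named in the sources. Alternatives were other scalings, filters and thresholds, DESeq2, a replicate block and leaving out each library, and for the gene lists they were chosen after seeing the data.

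Named regions were, for each comparison against DMSO, 4 per intron class and direction with the largest fold among called regions of at least 2 CPM whose groups did not overlap, and a selection of these is described. Named hosts were the 8 with the most called regions per direction, the 5 with the most regions and the 5 with the smallest ratio p, and up to 4 genes per list. The members, the 12 gene lists and the tests were chosen with earlier results of these data known. The promoter windows were chosen after their values were seen, and the sequences of other regions were not used here. Same-numbered replicates of DMSO and osimertinib DTP deviated together (r = 0.341 to 0.368), while unlike numbers of these groups gave −0.348 to 0.0486. No label explains the number. Libraries of unlike number could also deviate together, as AZD5153 replicate 2 did with osimertinib DTP replicate 3 (r = 0.324). Whether the replicates were paired is thus not settled, and the number was a block only in an alternative fit.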

Additional observations from a re-analysis of the deposited data

How the results depend on the processing

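The results were recomputed under 913 alternative values. All 448 values of named regions, each in the comparison with DMSO for which it was named, kept their direction and call. These regions were picked for the largest folds among called regions whose groups did not overlap. Their stability therefore says nothing about a typical call. In the other comparison with DMSO, FNDC3A and ZNF730, both named for the AZD5153 group, lost their osimertinib DTP calls without some libraries (adjusted p 0.0509 to 0.143). Against osimertinib DTP, 75 of 84 stayed uncalled and 9 became called. Of the values for the main counts and shares, 200 stayed within their limits and 61 moved.

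An adjusted p under 0.01 left 1265 intronic regions called in osimertinib DTP and 2850 in the AZD5153 group, both against DMSO. Fitting only the libraries of both groups gave 8665 and 4248. Between the drug groups, DESeq2 called 19 intronic regions (7 first, 12 later) and 126 host sums, and library size without TMM called 2 host sums. A minimum mean of 50 counts gave 14 changed ratios there. The first-intron share over intronic and promoter counts differed by −1.39 points in osimertinib DTP.

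Leaving out 1 library gave 408 to 8992 called intronic regions in osimertinib DTP (first 141 to 3348, later 267 to 5644) and 2424 to 10229 in the AZD5153 group (first 877 to 3885, later 1547 to 6344). Between the drug groups it gave 0 to 23 (first 0 to 8, later 0 to 15). The low values against DMSO came without DMSO replicate 2 and the high ones without AZD5153 replicate 3. Host sums ranged from 967 to 2307 in osimertinib DTP and 0 to 106 between the drug groups, and changed ratios from 205 to 391 and from 1 to 25. The causes were not tested.

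With the replicate number as a block, the fit gave 2129 intronic regions higher and 2035 lower in osimertinib DTP, and 2872 and 3361 in the AZD5153 group. It gave 0 calls between the drug groups for regions in edgeR, with 1472 at an unadjusted p under 0.05, and 5 changed ratios. Deviations did not follow the number in all AZD5153 libraries. Against DMSO of the same number, AZD5153 replicates 2 and 3 deviated together (r = 0.549 and 0.355) but replicate 1 did not (−0.00779). Against osimertinib DTP, r was 0.267, −0.00603 and −0.269 for replicates 1 to 3. The block ended the calls on the sums of LPP (adjusted p = 0.0641) and LOC101929705 (0.0601) in osimertinib DTP, and of GNG7 (0.0884), NTN1 (0.0609) and RASAL2 (0.0545) in the AZD5153 group.

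AZD5153 replicate 3 had the lowest total count (6263443, the next being 8839536) and the lowest intronic share (13.99%), and 13.5% of its intronic regions had 3 counts or fewer. Which of these limited the counts was not tested.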
